A study of Sus scrofa with 10 samples.

Results

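Splicing factors and heterogeneous nuclear ribonucleoproteins (hnRNPs) were examined in pig morulae after knockdown of DDB1. Members were the genes whose symbol in the deposited tables begins with SRSF, HNRNP, SF3A, SF3B, SNRP or U2AF, with a digit after SRSF, SF3A and SF3B. The rule took 42 of the 24358 listed genes, and no symbol was listed more than 1 time. They comprised 10 SR proteins, 14 hnRNP proteins, 8 subunits of SF3A and SF3B, 8 proteins of the small nuclear ribonucleoproteins (snRNPs) and 2 subunits of U2AF. Their isoforms made up 123 of the 47421 isoforms listed. The rule picks genes by symbol and uses no measured value, though it was set with earlier results of these data known.

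Introns are removed by the spliceosome, which assembles on each pre-mRNA from snRNPs. An snRNP is a small RNA with proteins of its own, and most carry a ring of Sm proteins. U2AF marks the end of the intron, the SF3A and SF3B subunits anchor the U2 snRNP at the branch site, and SR and hnRNP proteins bind exons and introns to favour or oppose nearby splice sites. In early embryos the first supply of these proteins and their mRNAs comes from the oocyte, and transcription from the embryonic genome adds to it later.

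The libraries came from preimplantation embryos at the morula stage, when blastomeres compact before a blastocyst forms. Matured pig oocytes received a small interfering RNA against DDB1 (the 5 DDB1_KD libraries) or a non-specific one (the 5 NC libraries). All embryos of both groups were parthenogenetic, activated without sperm and so without a paternal genome. How many embryos entered a library is not stated in the sources used here, nor whether the 5 libraries had separate cultures behind them. The p-values therefore cover the spread among these libraries, whatever its source.

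Library totals ran from 32466912 to 50911295 estimated counts, covering 13522 to 14755 genes, and the highest correlation between libraries was 0.946. DDB1, the adaptor of CUL4 ubiquitin ligases and the target of the knockdown, had 0.920, 1.30, 1.28, 1.30 and 1.55 FPKM (fragments per kilobase of exon, scaled to library size) in DDB1_KD and 3.59, 3.12, 2.53, 3.15 and 4.44 FPKM in NC. The groups did not overlap, and the exact permutation p (two-sided) was 0.00794, the smallest it can give, although edgeR's adjusted p was 0.977. Among pluripotency genes, 6 of 8 listed in the table, DPPA2 lay between 84.7 and 175 FPKM over the 10 libraries and KLF4 between 17.8 and 50.7 FPKM, but NANOG between 0.35 and 11.2 FPKM and SOX2 between 0.29 and 2.39 FPKM. Of these 6 tested genes, 3 had a higher and 3 a lower fitted value in DDB1_KD (median 0.18). Summed markers of cumulus cells and of fibroblasts stayed at or below 1.22 and 1.33 FPKM, with FSHR and AMH at a count of 0 in every library. Summed blood cell markers reached 6.85 FPKM in DDB1_KD library 1 and 10.2 FPKM in NC library 1, with HBB at 9.97 FPKM at most. Maternal oocyte transcripts, 17 of 20 listed in the table, summed to 221, 846, 455, 219 and 509 FPKM in DDB1_KD, where NC libraries lay between 212 and 358 FPKM in NC. All 15 of these that were tested had a fitted value higher in DDB1_KD (median log2 fold change 0.90), and 7 of 8 tested trophectoderm genes had a lower one (median -1.11). None of these markers passed edgeR's adjusted test. In whole embryos, fewer cells of a type and less RNA per cell cannot be told apart.

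All 42 splicing genes were expressed, and none separated DDB1_KD from NC. Their mean levels over the 10 libraries ran from 1.84 FPKM for HNRNPLL to 2324 FPKM for SNRPE, with a median of 38.5 FPKM against 5.70 FPKM for all genes tested. Of the 42, 39 lay above that median and 11 exceeded 100 FPKM. Only HNRNPLL, SF3A2 and SRSF4 were under 5 FPKM. All 42 passed the filter of a mean of at least 1 FPKM.

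**Figure D1:**
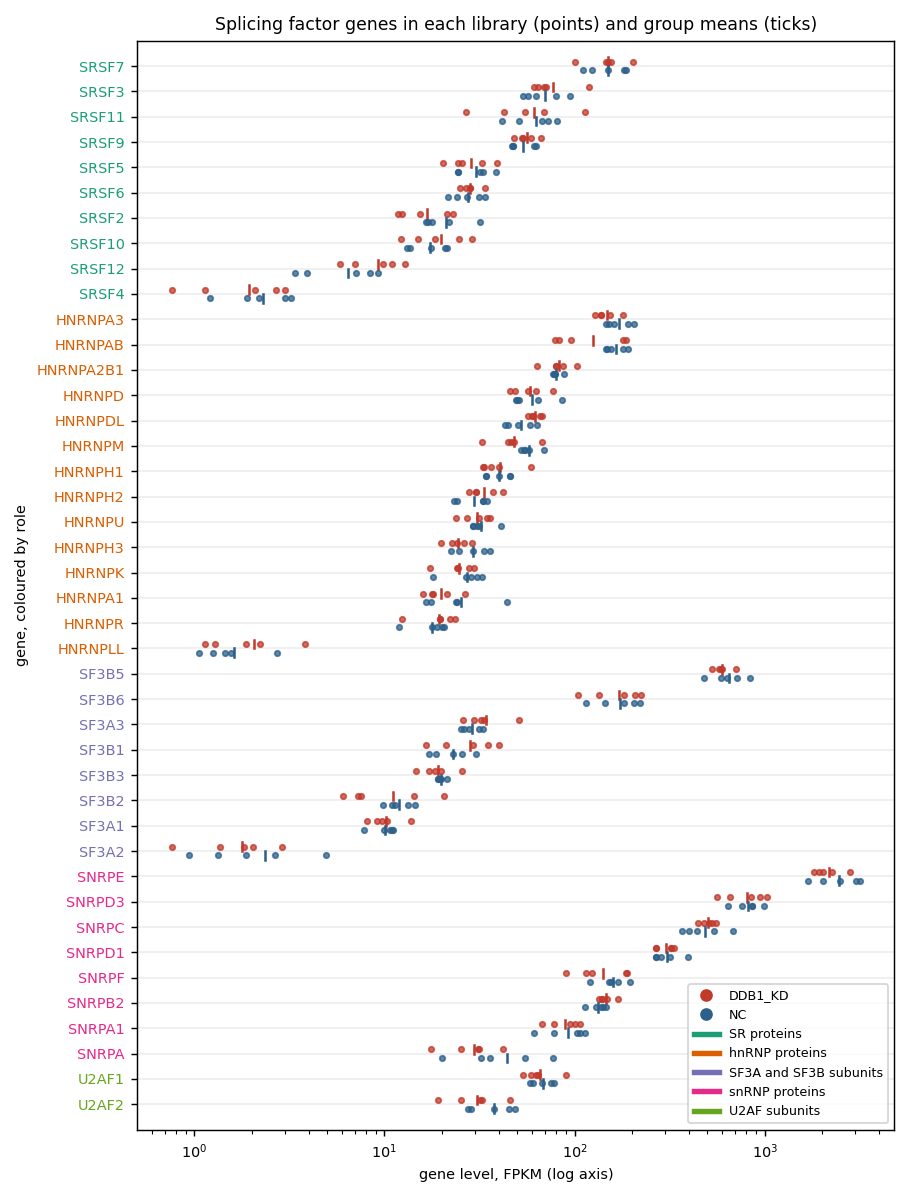
FPKM of each of the 42 genes on a log axis, by role, with 1 point per library and a tick at each group mean, DDB1_KD in red and NC in blue. The points of both groups overlap for every gene, and the snRNP proteins SNRPE, SNRPD3 and SNRPC and the subunit SF3B5 stand highest.

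None of the 42 genes passed the gene test, edgeR's quasi-likelihood test at an adjusted p under 0.05, where the share over all 8476 genes tested was also 0%. At an unadjusted p under 0.05 edgeR put 0 of 42, against 2.89% of all genes. DESeq2 passed 0 of 42 members and 0.0236% of all genes, and limma 0 of 42 and 0%. At an unadjusted 0.05 the members' count was again 0 with DESeq2, against 4.16% of all genes, and 0 with limma, against 3.22%. Groups did not overlap for 0 of 42 members and for 0.413% of all genes. The fitted value was higher in DDB1_KD for 17 members and lower for 25, where the same split over all genes was 50% and 50%. The median log2 fold change of the members was -0.04, and that of all genes tested was 0.00.

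Log2 fold changes of DDB1_KD against NC ran from -0.56 for SNRPA to 0.56 for SRSF12, and 34 of the 42 lay within 0.3 of 0. Adjusted p-values from edgeR lay between 0.977 and 0.996, and the smallest unadjusted p, that of SRSF12, was 0.117. For 37 of the 42 the approximate 95% interval of the log2 fold change stayed between -1 and 1. Changes beyond that size lie outside the interval for these genes. The other 5 intervals reached past -1 or 1, and for smaller changes the intervals leave the direction undetermined. The matching shares over all genes were not computed, so these counts describe the members alone. The median SE was 0.22 for the members and 0.32 for all genes tested.

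**Figure D2:**
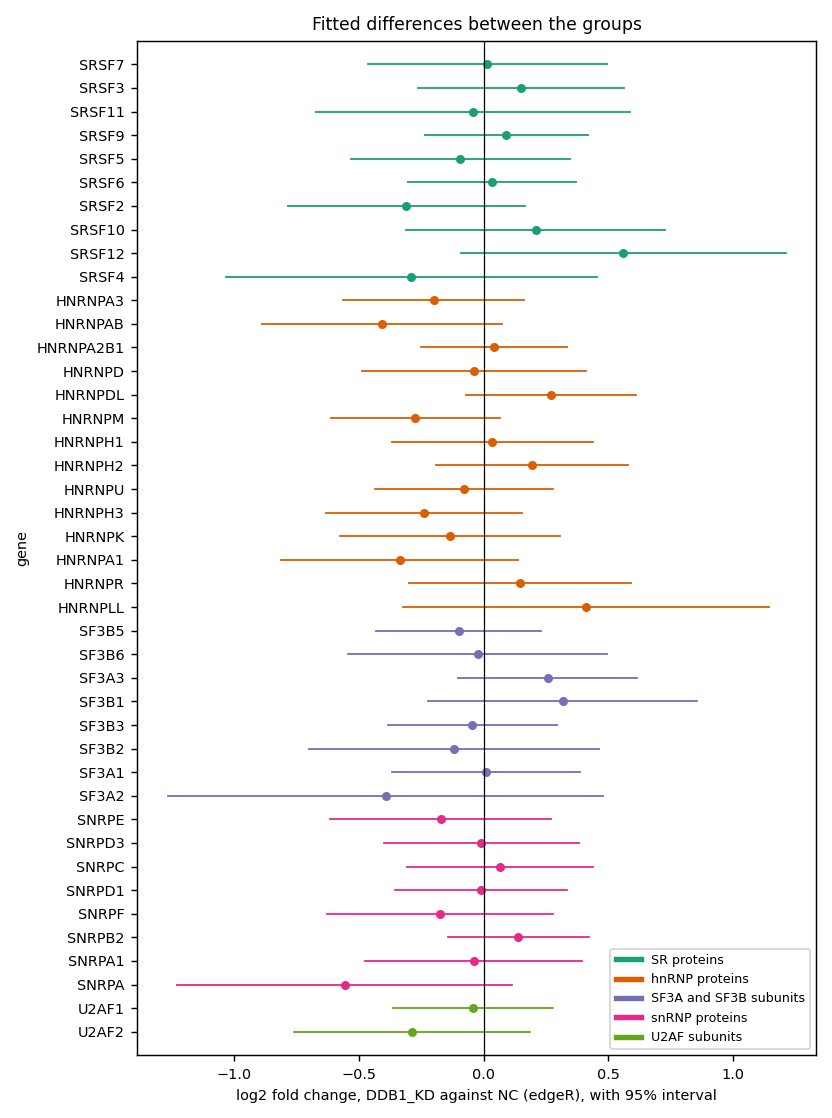
Log2 fold change of DDB1_KD against NC from edgeR for each of the 42 genes, coloured by role, with the 95% interval as a line. Every interval crosses 0, and the point estimates run from -0.56 (SNRPA) to 0.56 (SRSF12).

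The branch-site complexes SF3A and SF3B were at a median of 22.6 FPKM, with 3 of 8 fitted values higher and 5 lower in DDB1_KD (group median on the log2 scale -0.04). SF3B5, a small subunit that sits with SF3B3, was the most abundant of them. It measured 703, 574, 591, 599 and 531 FPKM in DDB1_KD libraries 1 to 5 and 717, 587, 835, 480 and 634 FPKM in NC libraries 1 to 5 (log2 fold change -0.10, SE 0.17). NC held both the highest and the lowest value. SF3B6, which contacts the branch-site region of the pre-mRNA, stood at 208, 223, 183, 105 and 134 FPKM in DDB1_KD against 145, 221, 182, 206 and 115 FPKM in NC (log2 fold change -0.02, SE 0.27).

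SF3B1, the large scaffold that clamps the branch-site helix, had 21.2, 39.9, 29.3, 16.5 and 35.0 FPKM in DDB1_KD against 18.7, 30.3, 22.8, 25.5 and 17.2 FPKM in NC. The means were 28.4 ± 9.61 and 22.9 ± 5.30 FPKM (SD, n = 5, as for all means below), with a log2 fold change of 0.32 (SE 0.28). DDB1_KD libraries 2 and 5 exceeded all NC libraries and DDB1_KD library 4 was below all of them, so the groups overlapped. SF3A3, a subunit that bridges SF3A to the rest of the U2 particle, had 29.6, 50.8, 32.3, 33.5 and 25.9 FPKM in DDB1_KD against 26.2, 25.4, 27.9, 31.5 and 32.8 FPKM in NC (log2 fold change 0.26, SE 0.18). DDB1_KD library 2 was the highest of all 10, and 3 of the other 4 DDB1_KD libraries lay within the NC range.

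SF3B3, a beta-propeller protein of the same family as DDB1, was the steadiest of these subunits in the controls. It showed 19.8, 21.4, 19.1, 19.6 and 19.1 FPKM in NC and 19.9, 14.7, 17.2, 25.6 and 18.4 FPKM in DDB1_KD (means 19.8 ± 0.948 and 19.2 ± 4.08 FPKM). The log2 fold change was -0.05 (SE 0.17), and DDB1_KD values lay on both sides of the NC range. SF3A1, which holds the SF3A trimer together, gave 10.3, 9.76, 9.14, 13.9 and 8.10 FPKM in DDB1_KD against 7.77, 11.1, 10.7, 10.9 and 9.97 FPKM in NC (log2 fold change 0.01, SE 0.19). SF3B2 and SF3A2, the remaining subunits, had log2 fold changes of -0.12 (SE 0.30) and -0.39 (SE 0.44). For SF3B2, DDB1_KD libraries 2, 3 and 5 (7.25, 6.04 and 7.55 FPKM) lay below the NC range of 9.77 to 14.4 FPKM. Library 4 (20.5 FPKM) lay above that range and library 1 (14.3 FPKM) within it.

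U2AF1, which reads the AG at the intron's end, had 64.5, 63.0, 53.7, 89.7 and 59.1 FPKM in DDB1_KD against 75.5, 58.2, 60.5, 67.2 and 78.2 FPKM in NC (log2 fold change -0.04, SE 0.16). Its partner U2AF2, which binds the adjoining pyrimidine tract, had 32.6, 25.2, 19.0, 45.6 and 31.7 FPKM in DDB1_KD against 37.7, 28.6, 27.6, 45.2 and 48.4 FPKM in NC (log2 fold change -0.29, SE 0.24). Both genes were highest in library 4 within DDB1_KD and lowest there in library 3, and both overlapped between the groups.

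SR proteins bind exonic enhancers and recruit the splicing machinery through domains rich in arginine and serine. Their median level was 28.7 FPKM, with 6 of 10 fitted values higher and 4 lower in DDB1_KD (group median on the log2 scale 0.02). SRSF7, which also acts as an adaptor for mRNA export, was the highest at 150, 156, 202, 100 and 146 FPKM in DDB1_KD against 111, 183, 149, 186 and 123 FPKM in NC (log2 fold change 0.01, SE 0.24). SRSF3, another export adaptor, had 64.1, 119, 69.3, 71.1 and 60.9 FPKM in DDB1_KD against 53.8, 57.2, 80.2, 62.6 and 94.4 FPKM in NC (log2 fold change 0.15, SE 0.21). DDB1_KD library 2 stood alone at the top, and the other 4 DDB1_KD libraries lay inside the NC range.

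SRSF11, an SR-related protein, varied 4.22-fold between libraries, with 69.1, 26.7, 42.5, 113 and 55.0 FPKM in DDB1_KD against 80.6, 41.8, 51.3, 67.4 and 72.6 FPKM in NC. The DDB1_KD libraries held both extremes, and the log2 fold change was -0.04 (SE 0.32). SRSF2, a component of nuclear speckles, had 21.3, 11.8, 15.4, 23.1 and 12.3 FPKM in DDB1_KD against 21.8, 17.8, 16.6, 17 and 31.7 FPKM in NC (log2 fold change -0.31, SE 0.24). DDB1_KD libraries 2, 3 and 5 lay below every NC library, while libraries 1 and 4 lay within the NC range.

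SRSF12, an SR protein described as a splicing repressor, had the largest positive estimate among the members. It was at 5.81, 12.8, 9.80, 7.03 and 10.9 FPKM in DDB1_KD against 3.92, 3.39, 8.38, 7.10 and 9.24 FPKM in NC, with means of 9.27 ± 2.84 and 6.41 ± 2.63 FPKM. The log2 fold change was 0.56 (SE 0.33, 95% interval -0.09 to 1.21). NC libraries 1 and 2 were lowest of all 10, and the other 3 NC libraries lay among the DDB1_KD values. SRSF10, which turns into a repressor when dephosphorylated, had 15, 28.9, 18.3, 12.2 and 24.6 FPKM in DDB1_KD against 20.9, 13.1, 17.6, 21.3 and 13.5 FPKM in NC (log2 fold change 0.21, SE 0.26). SRSF4, SRSF5, SRSF6 and SRSF9 had log2 fold changes of -0.29, -0.09, 0.03 and 0.09.

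hnRNP proteins coat nascent transcripts and commonly oppose the use of nearby splice sites. Their median level was 35.9 FPKM, with 6 of 14 fitted values higher and 8 lower in DDB1_KD (group median on the log2 scale -0.06). HNRNPA3, an A/B-type hnRNP and the most abundant, had 154, 128, 137, 138 and 179 FPKM in DDB1_KD against 206, 190, 146, 160 and 153 FPKM in NC (log2 fold change -0.20, SE 0.18). DDB1_KD libraries 2, 3 and 4 were below all NC libraries.

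HNRNPAB, a related A/B-type protein (ENSSSCG00000014031, chromosome 2, 80187022 to 80194169, minus strand, susScr11), had the smallest p of the hnRNP group. Its levels were 181, 95.6, 82.4, 185 and 79.3 FPKM in DDB1_KD against 156, 180, 149, 146 and 191 FPKM in NC, with means of 125 ± 53.6 and 164 ± 20 FPKM. DDB1_KD libraries 2, 3 and 5 lay far below every NC library, and DDB1_KD libraries 1 and 4 lay in the upper part of the NC range, so the log2 fold change of -0.41 (SE 0.25) averages over libraries that differ. Those same libraries 2, 3 and 5 held the highest summed maternal transcripts (846, 455 and 509 FPKM) and mitochondrial shares of counts of 16.8%, 16.4% and 24.4%, against 12.2% in each of libraries 1 and 4 and 8.58% to 18.4% in NC. Summed trophectoderm genes were at 52.9, 109 and 289 FPKM there, against 259 and 587 FPKM in libraries 1 and 4 and 286 to 902 FPKM in NC. By this sum DDB1_KD library 1 lay below library 5 and below every NC library. The maternal sums weigh abundant genes most, and CCNB1 alone reached 345 FPKM in DDB1_KD. As a mean of log2 counts scaled to library size, the maternal level was 4.28, 3.77 and 3.48 in DDB1_KD libraries 2, 3 and 5. DDB1_KD libraries 1 and 4 had 0.725 and 2.30. NC library 3, where HNRNPAB had 149 FPKM, was at 3.45, and the other NC libraries lay between 1.49 and 2.52. The part of maternal, mitochondrial and trophectoderm levels in the HNRNPAB values was not tested.

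HNRNPM, which binds GU-rich intronic sequence, had 48.2, 44.5, 46.4, 67.8 and 32.6 FPKM in DDB1_KD against 68.9, 55.2, 57.9, 52.2 and 54.0 FPKM in NC (log2 fold change -0.27, SE 0.17). DDB1_KD library 4 was near the top of the NC range and the other 4 DDB1_KD libraries were below all of NC. HNRNPA2B1, known for RNA transport and reading of modified RNA, had 80.1, 103, 80.0, 87.0 and 63.5 FPKM in DDB1_KD against 79.3, 87.9, 78.8, 77.2 and 77.9 FPKM in NC (log2 fold change 0.04, SE 0.15). HNRNPR, a regulator of RNA processing in several tissues, had 19.7, 23.6, 22.0, 12.4 and 19.7 FPKM in DDB1_KD against 12, 17.9, 20.5, 20 and 18.8 FPKM in NC (log2 fold change 0.14, SE 0.23). Neither gene set its groups apart. The other 9 hnRNP genes ranged from -0.34 for HNRNPA1 to 0.41 for HNRNPLL on the log2 scale.

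The snRNP proteins had the highest levels of the 5 role groups, with a median of 227 FPKM. Fitted values were higher in DDB1_KD for 2 of the 8, and the median log2 fold change was -0.03. SNRPE, an Sm ring protein (ENSSSCG00000023562, chromosome 9, 64560511 to 64567008, plus strand), ranked 35 of 8476 by level. It had 2820, 1927, 2271, 1815 and 2036 FPKM in DDB1_KD against 3173, 3007, 2488, 2021 and 1681 FPKM in NC (log2 fold change -0.17, SE 0.23). SNRPD3, another Sm ring protein, had 1034, 948, 846, 657 and 561 FPKM in DDB1_KD against 859, 643, 988, 859 and 757 FPKM in NC (log2 fold change -0.01, SE 0.20).

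SNRPC, the U1 protein that steadies pairing with the intron's start, had 553, 480, 526, 444 and 507 FPKM in DDB1_KD against 543, 402, 685, 369 and 441 FPKM in NC. Its SD was 41.9 FPKM in DDB1_KD against 128 FPKM in NC, with a log2 fold change of 0.06 (SE 0.19). SNRPB2, which binds the U2 RNA, was the steadiest of the group at 148, 169, 134, 139 and 139 FPKM in DDB1_KD against 146, 113, 129, 137 and 142 FPKM in NC (log2 fold change 0.14, SE 0.14). Neither gene separated the groups.

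SNRPA, the U1 protein that binds a loop of the U1 RNA (ENSSSCG00000002998, chromosome 6, 48971868 to 48982369, plus strand), had the lowest level of the 8 and the largest negative estimate of all members. It had 25.4, 17.7, 31.2, 42.0 and 31.4 FPKM in DDB1_KD against 32.1, 20, 36.1, 54.9 and 77.2 FPKM in NC, with means of 29.6 ± 8.94 and 44.1 ± 22.4 FPKM. The log2 fold change was -0.56 (SE 0.34, 95% interval -1.23 to 0.11), and without NC library 5 it was -0.30, where HNRNPAB stood at -0.37. NC libraries 4 and 5 were the highest of all 10, and the remaining libraries of both groups shared a range. SNRPD1, SNRPF and SNRPA1 had log2 fold changes of -0.01, -0.17 and -0.04.

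The members varied less between libraries than all genes tested did at the median. Their median biological coefficient of variation, edgeR's estimate of spread beyond counting error, was 27.9%, against 38.8% over all genes tested. High-level genes varied less in general, so genes were also split by mean level into 5 bands of like size. In the top band, which held 28 of the 42 members, the members' median was 26.0% and that of all genes in the band 28.9%, with 22 of 28 members below the latter. In the next band the medians were 29.2% and 34.1%, with 9 of 10 members below. Among the 4 members in the 3 lower bands, 1 of 1 in the lowest was below its band's median (44.0% against 51.9%), while 0 of 2 (47.6% against 43.6%) and 0 of 1 (39.7% against 38.2%) were below in the others. These are descriptions, since genes are not independent of each other. In 19 of the 42 genes, or 45.2%, the highest library exceeded the lowest by more than 2 times. The share over all genes was not computed, so this count describes the members alone. DDB1_KD library 2 held the highest value for 10 members and the lowest for 7, and DDB1_KD library 4 for 6 and 8. The members' share of all counts ran from 1.01% to 1.24% in DDB1_KD and from 1.09% to 1.19% in NC.

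**Figure D3:**
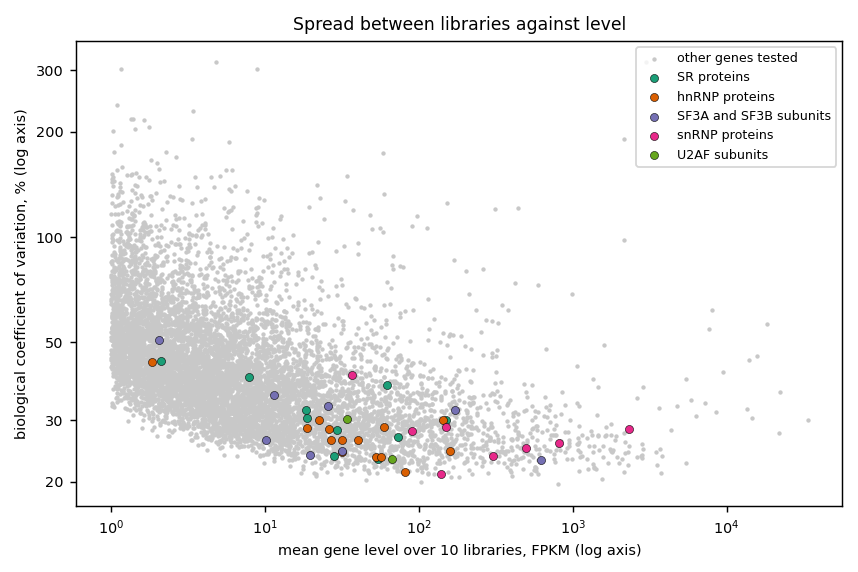
Biological coefficient of variation in percent against mean FPKM over the 10 libraries, both on log axes, with the 42 members coloured by role over the other genes tested in grey. Most members lie in the lower part of the cloud at their level, while SNRPA and SRSF11 lie above their neighbours.

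The wider pathway showed the same lack of separation. Of 141 listed genes in 5 lists, 124 were tested, 0 passed the adjusted test of edgeR and 0 had groups that did not overlap. At an unadjusted p under 0.05 there were 3 of 124, or 2 higher and 1 lower, where the share of all genes was 2.89%. All came from the other core spliceosome genes, of which 56 were tested, 28 with a higher and 28 with a lower fitted value (median 0.00). RNPC3, a protein of the minor spliceosome, had 5.55 ± 1.87 FPKM in DDB1_KD against 3.54 ± 0.666 FPKM in NC (log2 fold change 0.65, SE 0.26). CWC15, a protein of the activated spliceosome, had 45.4 ± 14.3 and 31.4 ± 6.38 FPKM (0.55, SE 0.23). SART3, which helps to recycle the U6 snRNP, had 1.81 ± 0.776 and 3.2 ± 1.14 FPKM (-0.82, SE 0.37).

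Among 13 tested snRNP assembly genes 8 had higher and 5 lower fitted values (median 0.10), with GEMIN2, a partner of SMN, at 33.8 ± 9.58 and 26.6 ± 6.36 FPKM. SR protein kinases and transport factors split 6 to 7 (median -0.03). SRPK2, which phosphorylates SR proteins, measured 5.06 ± 0.731 FPKM in DDB1_KD against 3.61 ± 1.07 FPKM in NC (log2 fold change 0.51, SE 0.24), and CLK1, a kinase of nuclear SR proteins, 31.1 ± 11.3 and 21.3 ± 7.16 FPKM (0.56, SE 0.33). Exon junction and decay factors split 6 to 4 (median 0.10), led by p with UPF3A at 2.59 ± 1.99 and 1.48 ± 0.649 FPKM. Other splicing regulators split 13 to 19 (median -0.03). PCBP1, a poly(C)-binding protein, had 148, 78.2, 110, 225 and 121 FPKM in DDB1_KD against 168, 177, 164, 192 and 223 FPKM in NC (log2 fold change -0.44, SE 0.24). DDB1_KD libraries 1, 2, 3 and 5 lay below all NC libraries and library 4 above them.

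Isoforms were then compared within the members. Of the 42 genes, 13 had 1 listed isoform and 29 had more, and 6 of the 123 isoforms had a count of 0 in all libraries. Isoform FPKM is scaled to the length of each isoform, and gene FPKM to a length near that of all exons together, so isoform values do not add up to the gene value. Isoforms of 1 gene share most exons, and their counts are estimates that depend on how shared reads are assigned.

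Of 91 member isoforms tested, 0 passed the isoform test (edgeR, adjusted p under 0.05), against 0.00889% of all 11250. At an unadjusted p under 0.05 there were 4 of 91, or 4.4%, against 3.36% of all isoforms, and limma put 5 of 91 there, against 3.28% of all. DESeq2 passed 1 of 91, against 0.604% of all. Fitted values were lower in DDB1_KD for 46 of 91, or 50.5%, against 49.4%, and groups did not overlap for 0 of 91, against 0.373%. These shares were near the background.

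The smallest p among them was that of ENSSSCT00000055542, a 27-exon isoform of SF3B1 of 7806 bases. It had 2.73, 0.288, 4.73, 6.93 and 1.4 FPKM in DDB1_KD against 2.41, 23.0, 18.4, 13.8 and 15.9 FPKM in NC, with means of 3.22 ± 2.66 and 14.7 ± 7.69 FPKM. NC library 1 lay within the DDB1_KD range, and the other 4 NC libraries were above all of them. The log2 fold change was -2.22 (SE 0.79, edgeR's adjusted p = 1), with a two-sided exact permutation p of 0.0317 on log2(FPKM + 1).

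A second SF3B1 isoform, ENSSSCT00000058408, was measured at 8.79 and 30.1 FPKM in DDB1_KD libraries 1 and 2 and had a count of 0 in the other 8 libraries. It was the member isoform that DESeq2 passed (adjusted p = 2.74e-16), whereas edgeR's adjusted p was 1 and the exact permutation p was 0.444. No fold change is given, since every NC library was at 0. ENSSSCT00000043376, an isoform of HNRNPA2B1, had 11.6 FPKM in NC library 4 and a count of 0 in the other 9 libraries. Its unadjusted edgeR p of 0.0489 thus rested on 1 library. The last of the 4, ENSSSCT00000057612, is the main isoform of HNRNPM and had 80.0, 93.4, 109, 163 and 82.6 FPKM in DDB1_KD against 175, 145, 143, 128 and 128 FPKM in NC. Its log2 fold change was -0.45 (SE 0.19, edgeR's adjusted p = 0.9997), with an exact permutation p of 0.0476. As at the gene level, only DDB1_KD library 4 reached the NC range. The 4 isoforms were picked by their p, so permutation tests on the same libraries give no separate support.

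The share test asked whether the dominant isoform, that with the highest mean FPKM, held a different part of its gene. It used limma on log2 of the dominant isoform's count plus 1 over the counts of the gene's other isoforms plus 1. It covered 28 members and 2814 genes in all. None of the 28 passed (0% of all genes did), and 1 of 28, SF3B1, was under an unadjusted 0.05, or 3.57% against 3.70% of all. Shares did not overlap between groups for 0 of 28 and for 0.604% of all genes, and ratios were lower in DDB1_KD for 17 of 28, or 60.7%, against 50.5%.

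Dominant isoforms were the same in every library for most members. More than 1 isoform was the highest in some library for 6 of 28 members, or 21.4%, against 68.1% of all genes in the test. These shares were not matched for level. The 42 members had a median of 38.5 FPKM, against 5.70 FPKM for all genes in the gene test. The part of level in this difference was not tested. In 22 of the 28 the dominant isoform held above 50% of summed isoform FPKM in all 10 libraries. For this count the share over all genes in the test was not computed, so it describes the members alone. Shares were narrowest in SNRPE, between 96.5% and 97.8%, in SNRPC, between 97.2% and 99.3%, and in SRSF7, between 70.4% and 74.6%. U2AF1 ran from 51.5% to 81.8%, and HNRNPA2B1 from 52.5% to 65.3%.

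**Figure D4:**
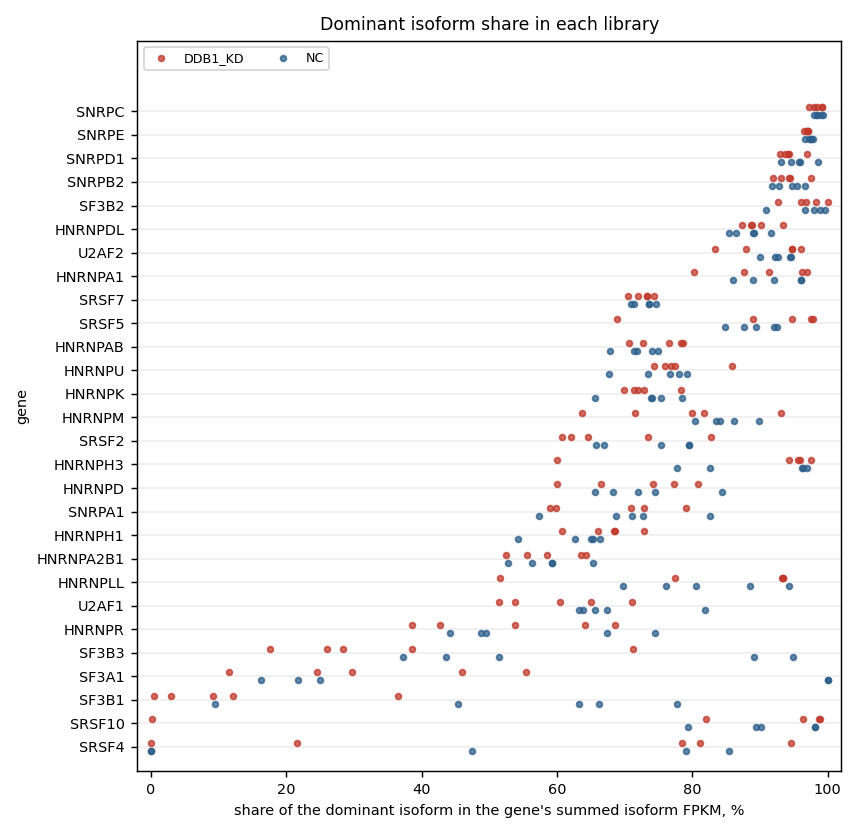
Share of the dominant isoform in a gene's summed isoform FPKM, in percent, for the 28 members with at least 2 isoforms at a mean of 0.5 FPKM, with 1 point per library, DDB1_KD in red and NC in blue. Shares of SNRPC, SNRPE and SNRPD1 stay within a few points of each other, while those of SF3B1, SF3B3, SF3A1, SRSF10 and SRSF4 spread over most of the axis.

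SF3B1 (ENSSSCG00000016075, chromosome 15, 101191854 to 101337916, minus strand) had the smallest p of the share test among members. ENSSSCT00000055542 made up 9.21%, 0.495%, 12.1%, 36.4% and 3% of its isoform FPKM in DDB1_KD against 9.54%, 63.3%, 66.3%, 45.3% and 77.8% in NC. It was the highest isoform in 4 NC libraries and in no DDB1_KD library. The difference in the log2 ratio was -4.08 (SE 1.4, limma's adjusted p = 0.986), with a two-sided exact permutation p of 0.0238 for the shares.

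Where that isoform was low, ENSSSCT00000054674 was in most libraries the higher of the pair. It had 9.86, 9.39, 20.3, 0.595 and 26.8 FPKM in DDB1_KD, 15.3 FPKM in NC library 1, and a count of 0 in NC libraries 2 to 5. The pair differs in annotated start, with ENSSSCT00000055542 beginning at 101337916 and ENSSSCT00000054674 at 101319807 on the minus strand of susScr11. The 3 of 7 isoforms with the upstream start together held 19.0%, 11.7%, 29.0%, 80.6% and 25.1% of SF3B1 isoform FPKM in DDB1_KD against 22.1%, 78.9%, 76.7%, 77.3% and 81.9% in NC. This grouping was chosen after the values were seen, so no test is given. DDB1_KD library 4 and NC library 1 crossed over. The gene's listed span overlaps those of ANKRD44 and HSPD1 on the same strand. The part of read assignment in these shares was not tested.

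**Figure D5:**
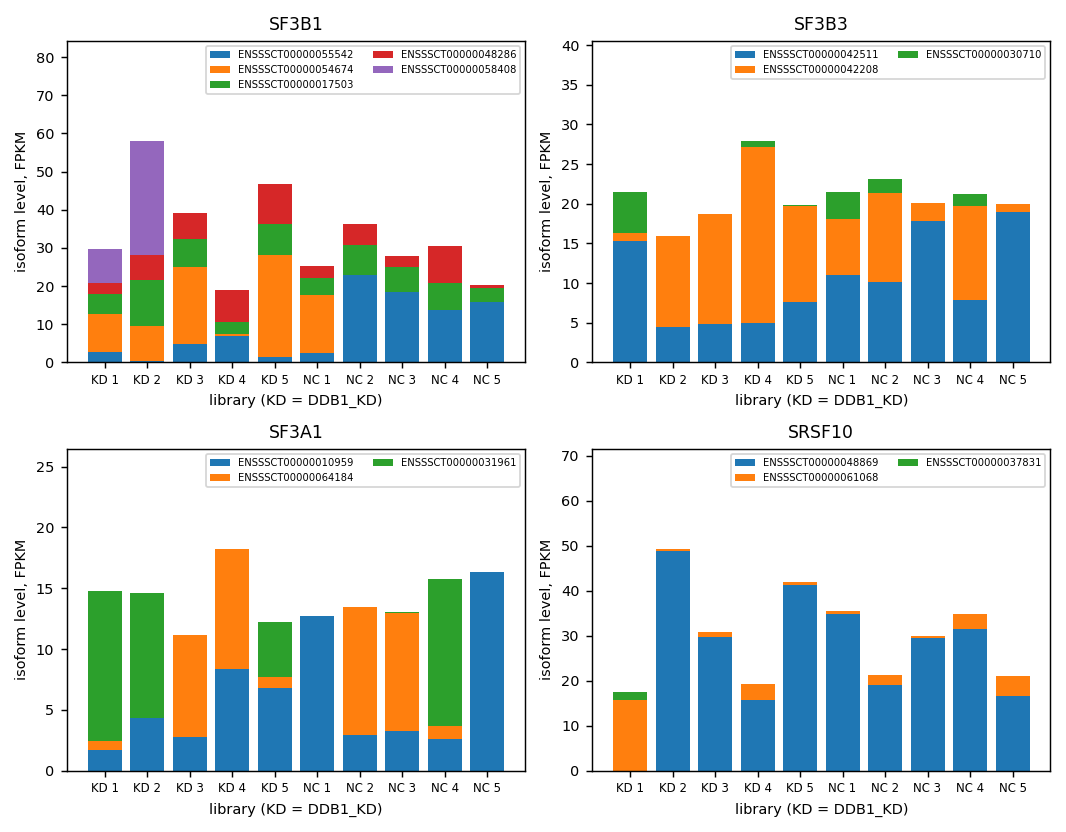
Stacked FPKM of the isoforms with a mean above 0.05 FPKM of SF3B1, SF3B3, SF3A1 and SRSF10 in each library, bars from 0. ENSSSCT00000055542 of SF3B1 is the tallest segment in NC libraries 2 to 5 and in no DDB1_KD library, and ENSSSCT00000048869 of SRSF10 is the main segment of every SRSF10 bar except that of DDB1_KD library 1.

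SF3B3 (ENSSSCG00000025323, chromosome 6, 13524716 to 13578845, plus strand) divided mainly between ENSSSCT00000042511 and ENSSSCT00000042208. The former held 71.2%, 28.3%, 26.0%, 17.6% and 38.5% in DDB1_KD and 51.4%, 43.6%, 89.1%, 37.2% and 94.9% in NC. It was the highest isoform in 1 DDB1_KD and 3 NC libraries, and the log2 ratio differed by -2.12 (SE 1.12). The gene's own level in NC changed little, between 19.1 and 21.4 FPKM, while these shares ranged widely.

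SF3A1 (ENSSSCG00000010002, chromosome 14, 47304808 to 47335398, minus strand) had 3 listed isoforms, each the highest in some library. ENSSSCT00000010959 held 11.6%, 29.7%, 24.5%, 46.0% and 55.4% in DDB1_KD and 100%, 21.7%, 25%, 16.3% and 100% in NC (log2 ratio difference -4.37, SE 3.01). ENSSSCT00000031961 reached 12.4 and 10.2 FPKM in DDB1_KD libraries 1 and 2 and 12.1 FPKM in NC library 4, while its count was 0 in DDB1_KD libraries 3 and 4 and in NC libraries 1, 2 and 5. The isoform estimated highest thus differed among libraries of the same group. The part of read assignment in this was not tested.

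HNRNPM was also among the 4 members with the smallest p of the share test, after SF3B1 and SF3B3 and before SF3A1. Its main isoform held 63.7%, 71.5%, 80.0%, 81.8% and 93.1% in DDB1_KD and 86.2%, 89.9%, 84.0%, 83.5% and 80.4% in NC (log2 ratio difference -0.79, SE 0.50). The DDB1_KD libraries held both the lowest and the highest share. HNRNPR, with 2 main isoforms, ranged from 38.5% to 68.6% in DDB1_KD and from 44.3% to 74.5% in NC, and its dominant isoform was the highest in 3 DDB1_KD and 2 NC libraries. SRSF4, under 5 FPKM as a gene, was the sixth member whose highest isoform changed between libraries.

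SRSF10 (ENSSSCG00000036293, chromosome 6, 81706663 to 81741526, minus strand) stood apart in 1 library. Its dominant isoform ENSSSCT00000048869, with 7 exons, held 98.9%, 96.3%, 82.0% and 98.7% in DDB1_KD libraries 2 to 5 and 79.4% to 98.1% in NC, but 0.169% in DDB1_KD library 1. There ENSSSCT00000061068, with 6 exons, had 15.6 FPKM, where the other 9 libraries had 0.563 to 4.34 FPKM. PNRC2 overlaps SRSF10 on the other strand, and 17 of the 42 members have such a partner. Overlap was judged on whole gene spans and not on exons, and its share over all genes was not computed. The sources used here do not state whether strand was used in counting. Where exons of a member and its partner overlap, their reads may therefore be mixed. Members with close paralogs or processed pseudogenes, such as HNRNPA1, HNRNPA3 and HNRNPH1, may also share reads with them.

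A table of Ensembl names gave family symbols to 7 further genes that the deposited tables list by identifier alone, SRSF1, SF3B4, SNRPD2, U2AF1L4, HNRNPL, HNRNPUL1 and HNRNPUL2. They were looked at after the data had been seen and are not counted above. SNRPD2, another Sm ring protein, had 1082 ± 160 FPKM in DDB1_KD against 1053 ± 224 FPKM in NC (log2 fold change 0.05, SE 0.20). SRSF1, a founding SR protein, had 8.85 ± 2.87 and 9.62 ± 2.34 FPKM (-0.14, SE 0.25). SF3B4, which binds upstream of the branch site, had 34.2 ± 4.12 and 31.8 ± 8.18 FPKM (0.12, SE 0.19). HNRNPL, a reader of CA repeats, varied most, from 0.0879 to 4.94 FPKM in DDB1_KD and from 0.0336 to 4.79 FPKM in NC. HNRNPUL2 was under the filter, at 1.02 FPKM at most. None of the 6 that were tested passed edgeR's adjusted test, and none of the 7 separated the groups.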

How the data were processed

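The 10 RNA-seq libraries were grouped by their titles. The authors deposited FPKM values and whole-number estimated counts for genes and isoforms, per the file headers. Per the submitters' processing notes, the build is susScr11 and the tools fastp, HISAT2, HOMER, ChIPseeker, StringTie and edgeR. Their roles and versions are not given in the sources used here. Isoform counts equalled FPKM times length times a constant within 1.5 counts plus 0.5%, and gene counts were sums of isoform counts, so their error may not be that of read counts. FPKM is 0.0001 where the count is 0.

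Genes and isoforms at a mean of at least 1 FPKM (8476 and 11250) were tested with edgeR 4.0.16 (quasi-likelihood, TMM, group alone, Benjamini-Hochberg) in R 4.3.3, and dominant isoform ratios with limma 3.58.1. Intervals are the estimate plus or minus 1.96 SE. For edgeR the SE was derived from the quasi-likelihood F statistic. The normal multiplier of 1.96 makes these intervals somewhat narrower than that test implies, so they are approximate. DESeq2 1.42.0 and limma on log2(FPKM + 1) were alternatives, as were other scalings, filters and pseudocounts and leaving out each library. Permutation tests used 252 assignments. The tests were tested on simulated data first, with 50 changed features per size. At log2 changes of 1, 2, 3 and 4 the gene test recovered 18%, 72%, 94% and 100% of them. The isoform test recovered 0%, 8%, 28% and 52%, and the share test 0%, 2%, 24% and 28%. False calls were 10, 0 and 3 in these 3 tests. Most isoform or share changes of log2 1 or 2 would thus be missed, as would most gene changes of log2 1. All sizes were planted together and noise was drawn independently for each feature, so recovery in the real data may be lower. DDB1 itself, at a log2 fold change of -1.39 (SE 0.28), had an edgeR adjusted p of 0.977. Figures were drawn with matplotlib 3.10.9.

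Named were, in each role group, the 3 members with the highest mean FPKM and the 2 with the smallest p, members of at least 10 FPKM whose highest isoform differed between libraries, the 4 with the smallest p of the share test, the 4 isoforms with the smallest p where none passed, and up to 3 genes per pathway list. Log2 fold changes or levels of other members and of genes found by other names are summaries outside this rule. The members and lists were chosen with earlier results of these data known. Symbols came from the table for 17451 genes and from Ensembl names for 951. No sequence is shown.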

Additional observations from a re-analysis of the deposited data

Results flagged for a closer look

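In 86 sets of 5 values (by group, the levels of the named members, their dominant isoform shares and the levels of the 4 isoforms with the smallest p), the highest or lowest library stood apart by Dixon's criterion (0.71 for 5 values) in 6, where chance alone marks about 1 in 20. At the gene level these were SRSF3 in DDB1_KD, with 119 FPKM in library 2, and HNRNPA2B1 in NC, with 87.9 FPKM in library 2. Among dominant isoform shares they were U2AF1 in NC, with 81.8% in library 1, SRSF10 in DDB1_KD, with 0.169% in library 1, and SNRPE in DDB1_KD, with 96.5% in library 3. The last was the HNRNPA2B1 isoform ENSSSCT00000043376 in NC, with 11.6 FPKM in library 4 and a count of 0 in the others.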

How the results depend on the processing

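Members passing the gene, isoform and share tests stayed at 0 under the alternatives run, except that DESeq2 passed 1 member isoform. The members' median log2 fold change lay between -0.07 and 0.01 with each library left out. Over the whole tables DESeq2 passed 2 genes and 68 isoforms, where edgeR passed 0 and 1, and the isoform count was 0 with no filter on low values. With each library left out in turn, isoforms passing ranged from 0 to 2, and genes passing the share test from 0 to 4. Fitting the replicate number as a block also gave 0 isoforms and changed no call among the members. Deviations of same-numbered libraries correlated from -0.14 to 0.35, and only number 3 matched best with its own, so the numbers were not read as pairs.

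Of 30 single results, 10 changed sign somewhere and none crossed a threshold. The log2 fold change of SF3A1 was -0.0071 with no filter, that of SRSF7 -0.0044 with limma at either pseudocount, and that of SNRPD3 0.012 with DESeq2 or its size factors. With each library left out, the ranges were -0.16 to 0.13 for SF3B6, -0.12 to 0.049 for SF3B3, -0.074 to 0.082 for SF3A1, -0.13 to 0.16 for SRSF7, -0.033 to 0.26 for SRSF3, -0.31 to 0.15 for SRSF11, -0.13 to 0.015 for U2AF1, -0.027 to 0.11 for HNRNPA2B1, -0.11 to 0.089 for SNRPD3 and -0.0015 to 0.21 for SNRPC. The cause was not tested. The log2 fold change of SNRPA ranged from -0.71 to -0.30, the latter without NC library 5. What depth alone limits was not tested.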
